A study of Mus musculus with 6 samples.

Results

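The G1 cyclins, their kinase Cdk4 and the inhibitors of cyclin-dependent kinases (CDKs) were followed in the uterus of ovariectomised mice after a single dose of estradiol. Members were all probe sets annotated to 10 gene symbols (Ccnd1, Ccnd2, Ccnd3, Ccne1, Ccne2, Cdk4, Cdkn1a, Cdkn1b, Cdkn1c and Cdkn2c). Each probe set, a group of short oligonucleotides meant to read transcripts of a gene, was kept separate. All 10 symbols were found, on 14 of the 12422 probe sets that are not array controls: 6 genes had 1 probe set and Ccnd1, Cdk4, Cdkn1a and Cdkn1b had 2 each. Female C57Bl/6 mice aged 10 to 11 weeks had their ovaries removed and were killed 7 days later. They received vehicle 24 h before death, or estradiol (E2, 0.05 µg per mouse, under the skin) with tissue taken after 1, 6, 12 or 24 h, and 1 more array is labelled 3 h. All groups share the loss of the ovaries. Uteri were pooled before RNA extraction, with 10 mice stated but not whether per group or in all, and each group is 1 Affymetrix U74Av2 array. No group had a replicate, so no difference below was tested or can be set against the spread between replicates. Every comparison with vehicle also shares the same vehicle array, which matches only the 24 h group in time since injection.

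The decision to leave G1 and copy DNA is made by CDKs. D-type cyclins (Ccnd1, Ccnd2, Ccnd3) are made in response to growth signals and activate Cdk4, which begins the phosphorylation of the retinoblastoma protein. This releases E2F factors, which switch on E-type cyclins (Ccne1, Ccne2) and the genes of S phase, and cyclin E with Cdk2 completes the step. INK4 inhibitors such as Cdkn2c (p18) bind Cdk4 and its relative Cdk6, whereas the Cip/Kip inhibitors Cdkn1a (p21), Cdkn1b (p27) and Cdkn1c (p57) bind cyclin-CDK complexes, mainly those of Cdk2. In the uterus estrogen is known for driving the epithelium of the lining into division, and much of the control of cyclin D1 and p27 there acts on the proteins, which these arrays do not read.

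Signal is given in the units of the deposited values after each array was scaled to the same trimmed mean. A floor of 142.8 units, the 40th percentile of all scaled values, separates signal that was treated as measured from signal that was not. Of the 14 probe sets, 8 were at or above this floor on all 6 arrays and 3 on none. On the vehicle, 1 h, 6 h, 12 h and 24 h arrays together, 10 probe sets of 7 genes reached it at least once, and Ccnd2, Ccne2 and Cdkn1b did not. Those 5 arrays correlated with each other at Spearman's rho of 0.929 to 0.968 across probe sets over their 10 pairs, a description with no test. The array labelled 3 h correlated with them at 0.843 to 0.857 and goes against its tissue label. On it the smooth muscle myosin gene Myh11 stood at 243 against 6948 to 10819.7 on the others, the epithelial keratin gene Krt19 at 5.2 against 1859 to 3264, and the skeletal muscle myosin gene Myh4 at 14211 against at most 24.1. Member values on it are therefore given apart, and no time course runs through it.

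**Figure D1:**
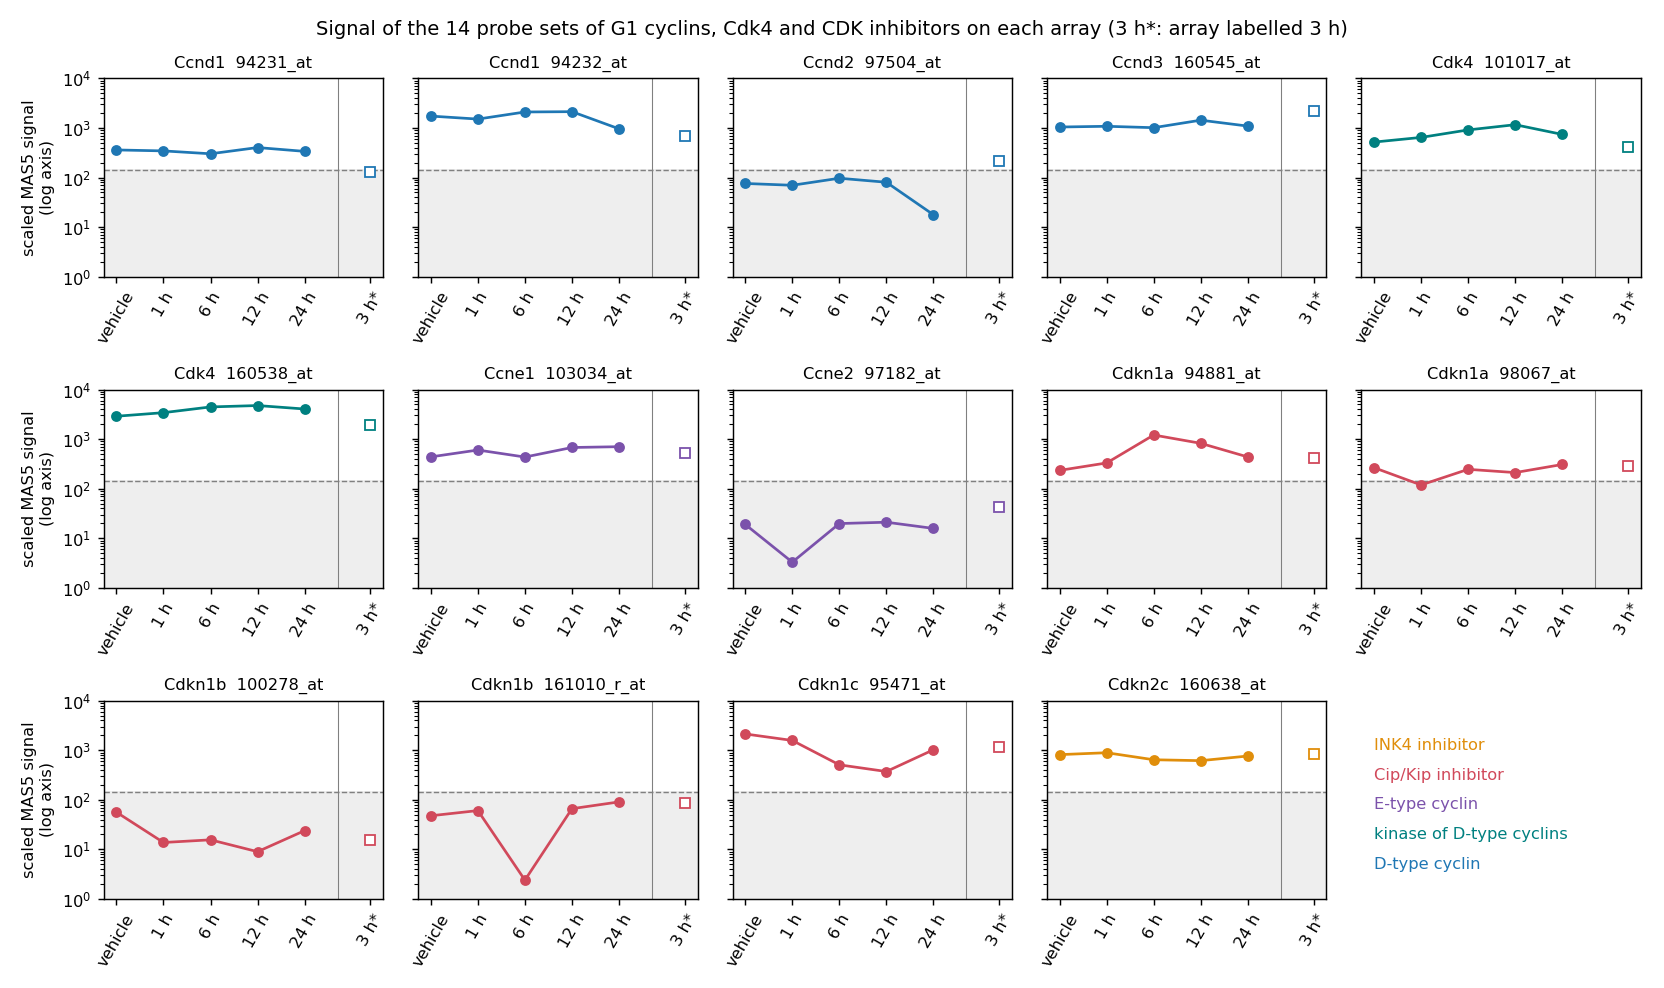
Scaled MAS5 signal (vertical log axis) of the 14 member probe sets on the vehicle, 1 h, 6 h, 12 h and 24 h arrays (filled points, 1 array each) and on the array labelled 3 h (open squares); the dashed line and grey band mark the floor of 142.8 and the values under it. Cdkn1a by probe set 94881_at peaks at 6 h, both Cdk4 probe sets peak at 12 h, Cdkn1c is lowest at 12 h, and Ccnd2, Ccne2 and Cdkn1b lie in the grey band on all 5 filled points.

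Counted against vehicle at a fixed minimum of 2-fold, the measured members split. Cdkn1a and Cdk4 were higher, each by 1 of 2 probe sets, and Cdkn1c was lower. The measured cyclins, Ccnd1, Ccnd3 and Ccne1, stayed under 2-fold. At 1 h, 0 of the 10 measured probe sets were 2-fold higher and 0 lower, where 1.08% and 0.552% of all measured probe sets were. At 6 h, 1 of 10 was higher (Cdkn1a by 94881_at) and 1 lower (Cdkn1c), beside 6.68% and 8.39% of all, a split that became 8.05% and 6.70% when arrays were scaled by their medians. At 12 h, 2 were higher (the same Cdkn1a probe set and Cdk4 by 101017_at) and 1 lower (Cdkn1c), beside 6.69% and 7.25%. At 24 h, 0 were higher and 1 was lower (Cdkn1c), beside 3.49% and 3.75%. Counts of 0 to 2 in 10 probe sets cannot be told from these background shares. The median log2 ratio of the measured members was 0.09, -0.03, 0.38 and 0.14 in time order, beside medians over all measured probe sets of 0.00, -0.05, -0.04 and -0.02. As a yardstick for single members, the log2 ratios of the middle 95% of all measured probe sets ran from -0.67 to 0.78 at 1 h and from -1.52 to 1.48 at 6 h. The same range was -1.46 to 1.43 at 12 h and -1.13 to 1.17 at 24 h. Cdkn1c and Cdkn1a by 94881_at lay outside it at both 6 and 12 h, the other Cdkn1a probe set lay outside it at 1 h, and the remaining member values lay inside. Between 6 and 12 h, 0 of 10 member probe sets were 2-fold higher and 0 lower, beside 1.75% and 1.41% of all.

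**Figure D2:**
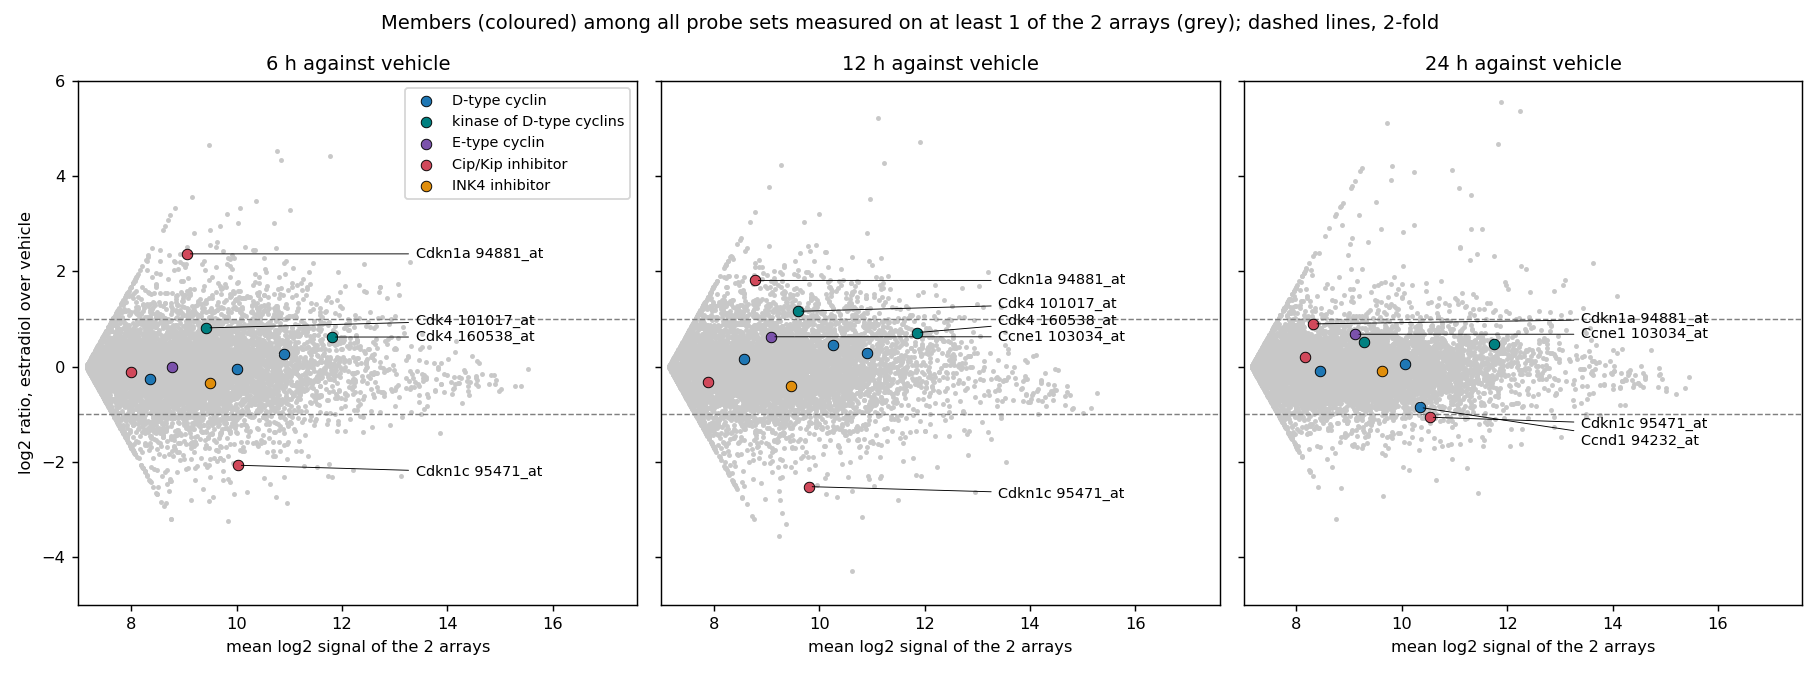
Log2 ratio of estradiol over vehicle (vertical) against the mean log2 signal of the 2 arrays (horizontal) at 6, 12 and 24 h, for every probe set measured on at least 1 of the 2 arrays (grey) and for the members (coloured by role, named from a log2 ratio of 0.6 in size). Cdkn1c lies at -2.07, -2.52 and -1.06 and Cdkn1a 94881_at at 2.37, 1.81 and 0.90. The measured D-type cyclins, Ccnd1 and Ccnd3, stay within 2-fold of vehicle in all 3 panels.

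Among the D-type cyclins, Ccnd1, the one most studied in estrogen responses, stayed within 1.23-fold of vehicle through 12 h by both probe sets and was lower at 24 h by 1 of them. Probe set 94232_at read 1739.8 with vehicle, then 1513, 2105, 2136 and 963 at 1, 6, 12 and 24 h. It was thus 1.21-fold and 1.23-fold above vehicle at 6 and 12 h and 1.81-fold below it at 24 h, and from 12 to 24 h it was 2.22-fold lower. Probe set 94231_at read 361, 345, 302, 403 and 338 in the same order, a range of 1.34-fold over the 5 arrays. The probe sets therefore differ at 24 h, where their log2 ratios were -0.85 and -0.10, and at 6 h, where they had opposite signs (0.28 and -0.26). Between 12 and 24 h, Ccnd1 by 94232_at was the 1 member of 10 at least 2-fold lower and Cdkn1c the 1 higher, beside 2.61% and 3.06% of all measured probe sets.

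Ccnd3, the D-type cyclin common in differentiated tissues, read 1047 with vehicle, then 1083, 1015, 1439 and 1093 at 1, 6, 12 and 24 h. It stood apart only at 12 h, at 1.37-fold above vehicle, inside the central range of all probe sets. Ccnd2, the D-type cyclin best known from lymphocytes and granulosa cells, read 76.1, 69.9, 97.0, 80.5 and 17.8, below the floor on all 5 arrays, and no fold is given. A signal under the floor is a limit of the measurement and not evidence that the gene is silent.

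Cdk4, the kinase that D-type cyclins activate, was above vehicle at every time by both of its probe sets. Probe set 101017_at read 520.1 with vehicle, then 646, 915, 1166 and 743 at 1, 6, 12 and 24 h. The fold over vehicle was 1.24, 1.76, 2.24 and 1.43 in the order of those times. Probe set 160538_at read 2897, 3420.1, 4463, 4762 and 4054, which is 1.18-fold, 1.54-fold, 1.64-fold and 1.40-fold over vehicle. Both placed the arrays in the same order, with vehicle lowest, then 1 h, 24 h, 6 h and 12 h. They are readings of the same 5 arrays and not replicates. At 12 h, 101017_at ranked 375th and 160538_at 999th from the highest of 7943 measured probe sets.

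Promoter windows from RefSeq (assembly GRCm38.p6, 250 bases before the annotated start to 50 after) were found for 6 of the 10 members, Ccnd3, Cdk4, Ccne1, Cdkn1a, Cdkn1b and Cdkn2c, as 9 windows. Those of Cdk4 and Cdkn1a are printed because these genes carry the higher values at 6 and 12 h. Searched on both strands were CACGTG (the E-box bound by Myc and its partners), GGGCGG (the GC box), GGTCA (1 arm of an estrogen response element), GGTCANNNTGACC (the full element), TGANTCA (AP-1), TTTCGCG and TTTGGCG (E2F), TGTTTAC (FOXO) and the p53 decamer, the last added after the sequences were seen. Capitals mark every match, and matches of different motifs may overlap. The Cdk4 window, chr10:127063285-127063584 on the plus strand, reads
Cdk4 promoter: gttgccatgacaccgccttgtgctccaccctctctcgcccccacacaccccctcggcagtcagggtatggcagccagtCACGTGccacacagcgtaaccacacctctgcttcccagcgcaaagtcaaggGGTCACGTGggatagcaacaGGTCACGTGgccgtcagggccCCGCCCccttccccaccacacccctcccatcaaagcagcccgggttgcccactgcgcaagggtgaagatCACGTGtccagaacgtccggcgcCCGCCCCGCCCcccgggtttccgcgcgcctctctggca
It holds 4 E-boxes, beginning at positions -172, -118, -98 and -11 from the start of the gene, 3 GC boxes and 2 GGTCA matches, each of which runs into an E-box. At least 1 E-box occurs in 7.15% of the 32851 windows of this length and at least 4 in 0.0244% (8 windows). The cut of 4 is the count in the Cdk4 window itself, so the latter share is no independent yardstick. No other motif was counted by copies over all windows. The Cdk4 window is 67.0% G and C, against a median of 52.7% over all windows. A GC box occurs in 35.7% and GGTCA in 40.5% of windows, the full estrogen element in 0.0700%, and none of the 9 member windows holds the full element or an AP-1 match. A match is a description of the letters, not evidence of binding.

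The E-type cyclin Ccne1 read 439 with vehicle, then 603, 435, 678 and 704 at 1, 6, 12 and 24 h. Its fold over vehicle was 1.37 at 1 h, 1.55 at 12 h and 1.60 at 24 h, with 6 h at the vehicle level (1.01-fold lower). The values at 12 and 24 h were close to each other (1.04-fold), and 1 h lay nearer to them than to vehicle. Ccne2, the second E-type cyclin, read 3.3 to 21.1 on the 5 arrays and was below the floor throughout.

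Of the Cip/Kip inhibitors, Cdkn1a (p21), a p53 target that also responds to growth factors, gave different readings by its probe sets. Probe set 94881_at read 234 with vehicle, then 331, 1212, 823 and 437 at 1, 6, 12 and 24 h. This is 1.41-fold, 5.17-fold, 3.51-fold and 1.87-fold over vehicle, and at 6 h it ranked 31st from the highest of 7935 measured probe sets. With the floor at the 60th percentile, above its vehicle signal, its log2 ratios at 6 and 12 h were 1.78 and 1.22. Probe set 98067_at read 266, 119, 246, 211 and 308. It was below the floor at 1 h, so at least 1.86-fold lower than vehicle there, and within 1.26-fold of vehicle at 6, 12 and 24 h. With the floor at the 20th percentile its log2 ratio at 1 h was -1.16, past 2-fold. At 6 h the log2 ratios of the probe sets were 2.37 and -0.11, a 5.58-fold disagreement, and at 12 h 1.81 and -0.33. The higher Cdkn1a values at 6 and 12 h thus rest on 1 of 2 probe sets. The array was designed with a different GenBank entry for each of them, and which reads the Cdkn1a transcript in this tissue was not tested.

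RefSeq has 2 start windows for Cdkn1a on the plus strand of chromosome 17, shown because a gene with 2 starts can give transcripts that differ at one end. The upstream window is chr17:29090729-29091028 and the downstream window chr17:29093519-29093818.
Cdkn1a upstream start: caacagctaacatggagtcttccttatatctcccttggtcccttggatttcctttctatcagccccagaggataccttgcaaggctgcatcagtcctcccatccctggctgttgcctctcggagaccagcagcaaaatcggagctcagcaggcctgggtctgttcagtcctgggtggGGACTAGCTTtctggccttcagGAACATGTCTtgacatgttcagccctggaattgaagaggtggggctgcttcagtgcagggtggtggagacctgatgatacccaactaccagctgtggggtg
Cdkn1a downstream start: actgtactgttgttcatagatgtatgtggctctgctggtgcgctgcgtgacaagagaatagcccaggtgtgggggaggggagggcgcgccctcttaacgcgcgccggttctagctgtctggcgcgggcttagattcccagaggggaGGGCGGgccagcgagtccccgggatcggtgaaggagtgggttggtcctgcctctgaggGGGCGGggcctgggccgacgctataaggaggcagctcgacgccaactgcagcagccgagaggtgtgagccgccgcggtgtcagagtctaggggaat
In the upstream window the capitals are 2 matches to the p53 decamer, beginning at positions -73 and -51, a motif present in 8.36% of all windows. In the downstream window they are 2 GC boxes, at positions -104 and -46. Neither window holds an E-box, a GGTCA arm or an AP-1, E2F or FOXO match in these letters. The arrays do not tell transcripts from these starts apart.

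Cdkn1c (p57), an inhibitor tied to cell cycle exit and an imprinted gene, was the member furthest below vehicle at 6, 12 and 24 h. Its single probe set, 95471_at, read 2134 with vehicle, then 1577, 509, 373 and 1023 at 1, 6, 12 and 24 h. It was thus below vehicle at each time, by 1.35-fold, 4.20-fold, 5.73-fold and 2.09-fold. All 5 values were above the floor, so none of these folds is a bound. At 6 h it ranked 63rd and at 12 h 21st from the lowest of the 7935 and 7943 measured probe sets. From 12 to 24 h it was 2.75-fold higher, which left it between the 6 h and 1 h levels. With vehicle and 1 h averaged as the reference, its log2 ratio at 24 h was -0.84, under 2-fold. In whole-organ RNA, fewer cells of the type that makes a transcript and less of it per cell cannot be told apart.

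Cdkn1b (p27), the inhibitor of resting cells, lay below the floor on every array by both probe sets, at 9.0 to 56.3 for 100278_at and 2.4 to 90.8 for 161010_r_at, so these arrays give no course for it. Cdkn2c (p18), the INK4 member, read 817 with vehicle, then 892, 644, 617 and 765 at 1, 6, 12 and 24 h. It was at most 1.32-fold from vehicle, at 12 h, and its lowest readings, at 6 and 12 h, came from the arrays with the lowest Cdkn1c.

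On the array labelled 3 h, 1 of 11 measured member probe sets was at least 2-fold higher than vehicle and 2 were lower, beside 11.8% and 12.9% of all measured probe sets. Ccnd3 read 2254 there, 2.15-fold over vehicle, and Ccnd1 read 131 by 94231_at and 683 by 94232_at, at least 2.53-fold and 2.55-fold lower. Ccnd2 reached the floor on this array alone, at 218, at least 1.53-fold over vehicle. Cdk4 read 418 by 101017_at and 1935 by 160538_at, below all 5 other arrays by both probe sets. Cdkn1a read 409.8 and 282, Cdkn1c 1175, Cdkn2c 824 and Ccne1 519. On the same array all 9 skeletal muscle markers and all 3 measured blood markers were at least 2-fold higher than vehicle, as were 9 of 12 leukocyte markers, while 7 of 8 smooth muscle markers and 9 of 11 uterine epithelium markers were lower, beside 11.4% higher and 13.0% lower over all measured genes. Their part in the member values was not tested.

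Markers of cell types differed on the other arrays too, and their values are given here beside Cdkn1c, Cdkn1a and Cdk4, the members at 2-fold. Of the 11 stromal fibroblast markers measured at 6 h, 6 were at least 2-fold lower than vehicle and 0 higher, beside 9.1% and 6.91% of all measured genes, with a median log2 ratio of -1.09. The median was -0.69 at 12 h, with 4 of 11 lower, beside 7.55% of all measured genes. At 24 h it was -0.52, with 1 of 12 lower and 2 higher, beside 3.82% and 3.69%. Their summed signal was 66384 with vehicle, then 57170, 34658, 48190 and 77012 at 1, 6, 12 and 24 h. At 24 h the sum was above vehicle while 4 of the 12 measured markers were. Single stromal genes differed: the receptor gene Pdgfra was 4.27-fold lower at 6 h and 3.96-fold at 12 h, and the proteoglycan gene Dcn 2.61-fold and 4.02-fold. The summed adipocyte markers were 13529.9 in vehicle, 7401 at 6 h, 5350.3 at 12 h and 4768 at 24 h, and the leukocyte markers 18286, 13332, 9687 and 9389.9. At least 2-fold lower at 6, 12 and 24 h were 1, 5 and 4 of 7 adipocyte markers. For leukocytes it was 0 of 11, 2 of 11 and 2 of 12, with medians of -0.23, -0.54 and -0.41. The shares over all measured genes were 9.1%, 7.55% and 3.82%. Of 9 measured endothelium markers, 3 were at least 2-fold lower at 6 h, 3 at 12 h and 2 at 24 h, beside 9.1%, 7.55% and 3.82%. Their medians were -0.34, -0.60 and -0.46, and their sum was 7574 in vehicle and 5434 at 12 h. The uterine epithelium markers summed to 14522 in vehicle and 13890 to 18765 across the other 4 arrays, and the smooth muscle markers to 50824 and 40529 to 68871. The pancreatic acinar list was 4660.5 in vehicle, then 2367, 1187.5, 2092 and 2109 at 1, 6, 12 and 24 h, below vehicle at every time. The skeletal muscle list summed to 1414 in vehicle, then 1180, 1619, 3398 and 2412 at 1, 6, 12 and 24 h. Of its 9 markers, 5 reached the floor on at least 1 of these 5 arrays, while Myh4, Myh1 and Tnnt3 did not. The actin gene Acta1 read 485 in vehicle and 2566 at 12 h. The part of these shifts in the member values was not tested.

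**Figure D3:**
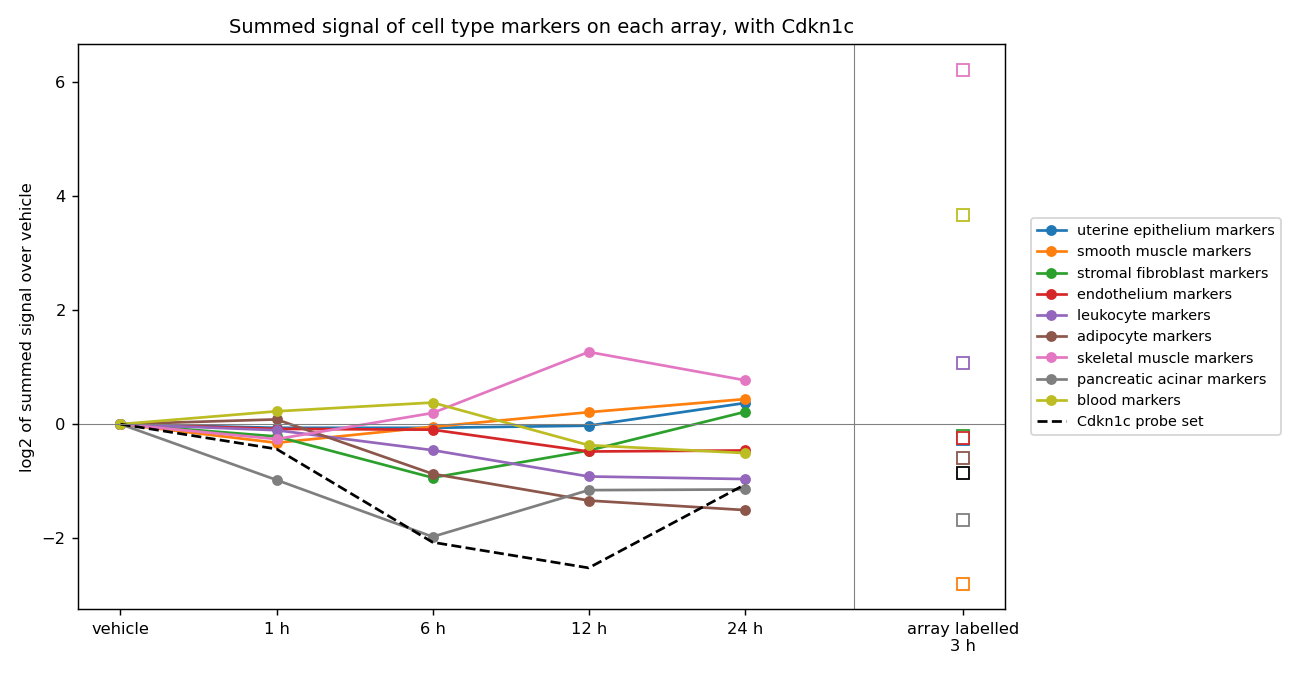
Log2 of the summed signal of each cell type marker list over its sum on the vehicle array (vertical), on the vehicle, 1 h, 6 h, 12 h and 24 h arrays and, as open squares, the array labelled 3 h; the dashed black line is Cdkn1c by its probe set. Cdkn1c reaches -2.07 at 6 h and -2.52 at 12 h, below the summed stromal fibroblast markers at -0.94 and -0.46. Bright genes weigh most in a sum, and the medians of the stromal markers were -1.09 and -0.69. The summed pancreatic acinar markers stand at -1.97 at 6 h and the adipocyte markers at -1.34 at 12 h. The skeletal muscle list stands at 6.21 on the array labelled 3 h.

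The profiles most like those of the members at 2-fold were found by the root mean square difference of log2 ratios over 4 times (1, 6, 12 and 24 h) among 10831 to 10832 probe sets with 1 symbol, a likeness that uses only these 5 arrays and their common reference. Nearest to Cdk4 by 101017_at were Psmd6, a proteasome subunit (0.0890 log2 units), Atp6v0a2, a proton pump subunit (0.108), and Wsb2 (0.108). Nearest to Cdkn1a by 94881_at were the G protein subunit gene Gng12 (0.116), the receptor kinase gene Ror2 (0.171) and Nhp2, a protein of small nucleolar ribonucleoproteins (0.178). Nhp2 read 903 with vehicle, then 1065, 4078, 3156 and 1864 at 1, 6, 12 and 24 h. Nearest to Cdkn1c were the epoxide hydrolase gene Ephx1 (0.208), whose 6 and 12 h values were below the floor, the clock repressor gene Nr1d2 (0.215) and Rin2 (0.224). Rin2 read 4282 with vehicle, then 3872, 861, 879 and 2116 at 1, 6, 12 and 24 h.

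Other genes of the pathway were described by the brightest probe set of each gene. Of the other G1 cyclins, CDKs and INK4 inhibitors, 9 of 11 on the array were measured at 6 h, with 0 at least 2-fold higher and 3 lower, beside 6.91% and 9.1% of all measured genes. Those 3 were Ccng2, a cyclin linked to arrest (at least 9.23-fold lower), Cdk5 (2.70-fold) and the INK4 inhibitor Cdkn2d (at least 2.20-fold), the last named after its values were seen. At 12 h Ccng1, a p53-induced cyclin, was 2.82-fold higher and Ccng2 and Cdkn2d 6.83-fold and 2.12-fold lower, beside 6.71% and 7.55% of all measured genes. At 24 h Ccng2 alone was past 2-fold, at 2.08-fold lower, beside 3.82%. Cdk2, the partner of cyclin E, read 433 in vehicle and 390 to 526 on the other 4 arrays. Mnat1, which assembles the CDK-activating kinase, was at most 1.47-fold from vehicle by its brightest probe set, with log2 ratios of 0.56, -0.12, -0.52 and 0.42 in time order. Its other probe set, 98979_at, differed in sign at 1 and 24 h, at -0.25 and -0.11, and stood at -0.72 at 12 h. The medians of this list at 6, 12 and 24 h were -0.12, -0.08 and 0.01.

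Among the retinoblastoma family and its E2F and DP partners, 1 of 4 measured genes was 2-fold higher and 1 lower at 6 h, beside 6.91% and 9.1% of all measured genes. The higher one was Tfdp1, the DP subunit that pairs with E2Fs, at 3.14-fold, and the lower one Rbl2 (p130), the pocket protein of resting cells, at least 2.26-fold. Tfdp1 was 2.62-fold higher at 12 h. Another probe set of it, 101958_f_at, had log2 ratios of 1.38 at 6 h and 1.52 at 12 h. At 24 h 101958_f_at had -0.18, where the brightest had 0.64. A dimmer one, 97565_r_at, was below the floor in vehicle, with 0.89 at 6 h and 0.35 at 12 h as bounds. E2f1 by its brightest probe set was below the floor in vehicle and at 1 and 6 h, and read 172 at 12 h and 185 at 24 h. These readings are at least 1.20-fold and 1.30-fold over vehicle. Its other probe set, 102963_at, was below the floor on every array. E2f5 was at most 1.32-fold from vehicle.

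Regulators of CDK activity and of inhibitor turnover held 2 of 11 measured genes at least 2-fold higher at 6 h, 1 of 12 at 12 h and 3 of 12 at 24 h, with 0 lower at each. Over all measured genes 6.91%, 6.71% and 3.69% were higher and 9.1%, 7.55% and 3.82% lower at those times. Cks1b, a CDK-binding protein that helps the ligase for p27, read 398 with vehicle, then 584, 881, 1494 and 1185 at 1, 6, 12 and 24 h, up to 3.76-fold over vehicle. Its relative Cks2 was 2.61-fold higher at 24 h, and the phosphatase gene Cdc25c at least 2.35-fold, the latter named after its values were seen. The other Cdc25c probe set, 102935_at, was below the floor on every array. Cops5, a signalosome subunit, was 2.02-fold higher at 6 h and the ubiquitin ligase subunit Skp1 1.76-fold at 12 h.

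Of the upstream transcription factors, 6 of 14 measured at 6 h were past 2-fold, 2 of them higher and 4 lower, beside 6.91% and 9.1% of all measured genes. Myc, an activator of Cdk4 and a repressor of Cdkn1a in other settings, read 215 with vehicle, then 430, 426, 362 and 275 at 1, 6, 12 and 24 h, and reached 2-fold over vehicle at 1 h. The Myc antagonists Mxi1 and Mxd4 were at least 6.34-fold and 6.12-fold lower at 6 h, and Foxo3, an activator of Cip/Kip genes, 3.69-fold. These 3 stood nearer to vehicle at 12 h, at 3.79-fold, 2.61-fold and 2.41-fold. Pgr, the progesterone receptor, was 5.44-fold higher at 6 h. Klf4, named after its values were seen, was higher at all 4 times, with log2 ratios of 1.11, 1.32, 1.33 and 1.06. Klf6, likewise named afterwards, was 2.29-fold lower at 6 h and is the last of the 4 lower there.

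Of the S phase genes, a minority were at least 2-fold over vehicle from 6 h on. At 1 h, 0 of 14 measured genes were past 2-fold either way, beside 0.928% higher and 0.381% lower over all genes. Past 2-fold higher were 4 of 15 at 6 h (6.91% of all genes), 5 of 16 at 12 h (6.71%) and 4 of 15 at 24 h (3.69%), with 0 lower by the brightest probe sets. The S phase medians were 0.09, 0.57, 0.85 and 0.82, beside -0.01, -0.05, -0.04 and -0.04 over all measured genes. Rrm2, a ribonucleotide reductase subunit, was at least 4.65-fold higher at 12 h, Mcm5 of the replicative helicase 2.97-fold, Cdc6, which loads it, 2.65-fold, the sliding clamp gene Pcna 2.52-fold and Mcm3 2.54-fold. The first 4 of these were also past 2-fold at 6 h, and at 24 h the genes past it were Ccna2, Mcm5, Rrm1 and Tk1. Cyclin A2 (Ccna2), the next cyclin after cyclin E, read 497 with vehicle, then 612, 574, 865 and 1128 at 1, 6, 12 and 24 h, 2.27-fold over vehicle at the last. The thymidine kinase gene Tk1 was 2.55-fold higher at 24 h by its brightest probe set, while the other, 161150_at, stood at a log2 ratio of -0.05. At 1 and 12 h the latter was below the floor, at -1.01 as a bound, against 0.46 and 0.90 by the brightest. Pcna, Cdc6, Mcm5 and Rrm2 had their highest value of the 5 arrays at 12 h. Among the members, so did both probe sets of Cdk4, both of Ccnd1, and Ccnd3. Ccna2 and Tk1 had theirs at 24 h, as did Ccne1 and Cdkn1a by 98067_at.

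**Figure D4:**
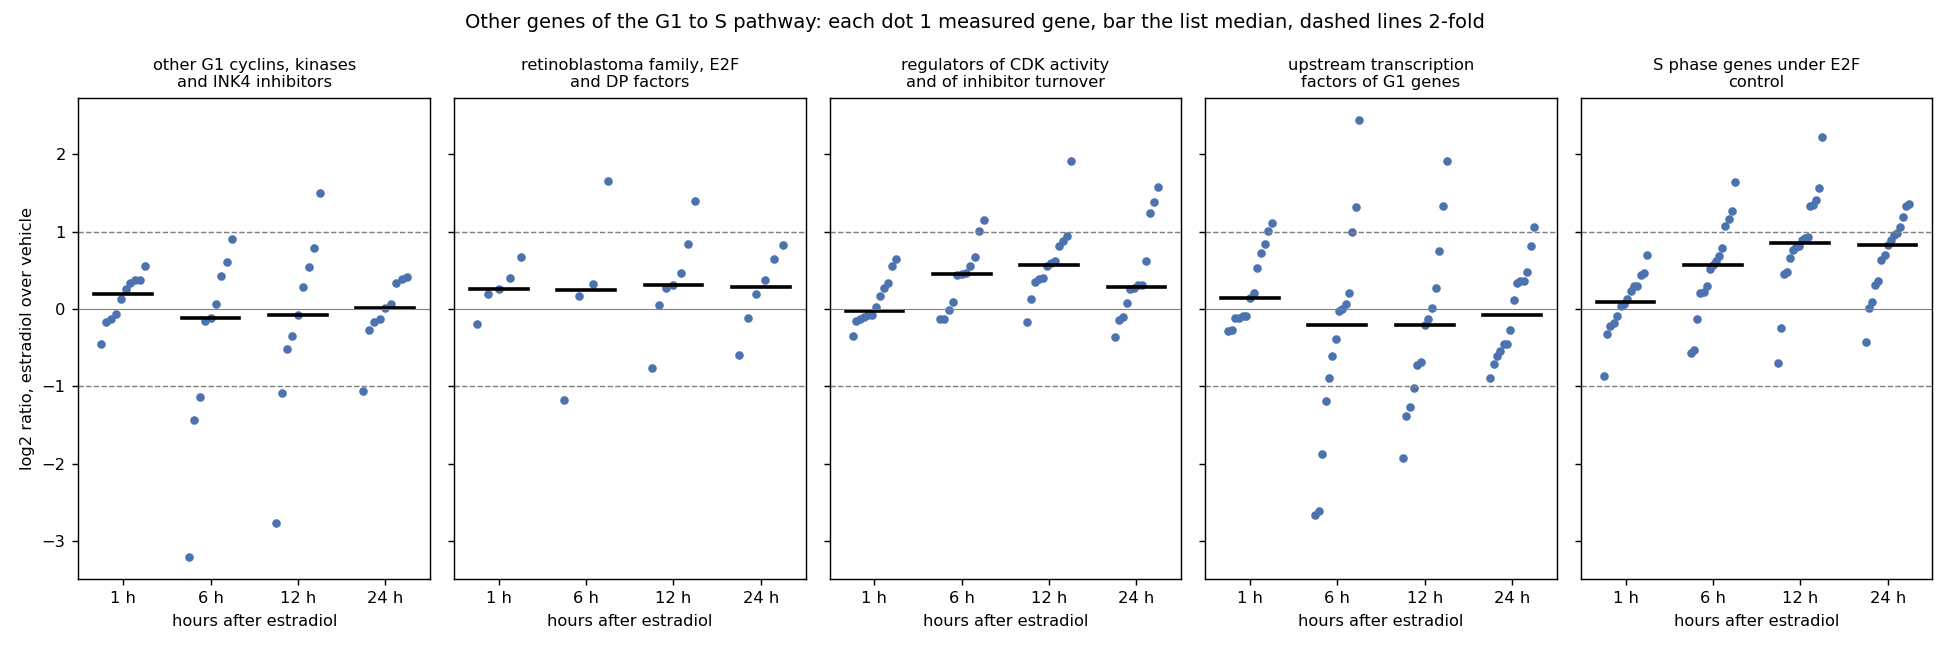
Log2 ratio of estradiol over vehicle (vertical) at 1, 6, 12 and 24 h for the measured genes of 5 lists of the G1 to S pathway outside the members; each dot is 1 gene by its brightest probe set, the black bar the list median and the dashed lines 2-fold. The S phase list has medians of 0.09, 0.57, 0.85 and 0.82, and the list of other G1 cyclins and kinases has medians of 0.19, -0.12, -0.08 and 0.01, with Ccng2 lowest at -3.21 at 6 h.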

How the data were processed

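The authors deposited MAS5 signal intensity on a linear scale, 1 value per probe set and array, per the submitters' processing notes, which give no version. Depth does not apply to arrays, and 1 array per group limits the precision. The 2% trimmed means of the deposited arrays were 500.2 to 500.3. Of 12488 probe sets, 66 controls were left out. The platform annotation gave 10833 probe sets 1 symbol, 396 several and 1193 none, and names were used for the first group alone (10817 matched a RefSeq gene table of GRCm38.p6). With Python 3.11.15, numpy 2.4.6 and pandas 2.3.3, trimmed means were made equal, lower values were set to 142.8 (the 40th percentile over all arrays), and log2 ratios to vehicle were taken. A fold against a value below this floor is a bound. A ratio counted as measured where at least 1 of the 2 arrays reached the floor. No test fits a design with 1 array per group. The processing was tested on simulated data. Actin and Gapdh control ratios (3' to 5') were 1.13 to 1.25 and 0.793 to 0.892.

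All member probe sets are named. From each pathway list, up to 4 genes with the largest difference at 1, 6, 12 or 24 h whose brighter array reached 352.65 (the 60th percentile) are named, with Cdk2, E2f1, Ccna2, Myc and Pcna, and the 3 probe sets most like each member at 2-fold. Cdkn2d, Cdc25c, Klf4, Klf6, Mcm3 and Rrm1 were named outside this rule, with their values known. Members and lists were chosen with earlier results of these data known. Alternatives were median scaling, quantile normalization, floors at the 20th and 60th percentile, the mean of vehicle and 1 h as reference, and, added after seeing the data, leaving out the array labelled 3 h. Marker lists were fixed for stromal fibroblasts, uterine epithelium, endothelium, smooth muscle, leukocytes, adipocytes, skeletal muscle, pancreatic acini and blood.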

Additional observations from a re-analysis of the deposited data

How the results depend on the processing

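Of 56 counts of members at 2-fold recomputed under another choice, 52 were within 1.5 times the reported count, and 274 of 278 recomputed log2 ratios stayed on their side of 2-fold, with 0 changes of direction among ratios past it. Counts of 0 to 2 and ratios far from 2-fold leave little room to move, so these tallies say little about stability. With the floor at the 20th percentile, 1 member was at least 2-fold lower at 1 h (Cdkn1a 98067_at, at -1.16) and 2 were higher on the array labelled 3 h (Ccnd3, and Ccnd2 at 1.52). Raising the floor to the 60th percentile left 1 lower on the array labelled 3 h, as Ccnd1 94231_at stood at -0.03. With the mean of vehicle and 1 h as reference, 0 were lower at 24 h, where Cdkn1c stood at -0.84. A higher floor raises both values of a dim probe set to the same level by construction, and the lower 1 h value of Cdkn1c enters the reference by construction. Without the array labelled 3 h, all 8 counts at 1, 6, 12 and 24 h were as reported. Leaving it out changes ratios among the other arrays only through the floor, by construction. Median scaling moved the median of all probe sets by under 0.1 at 1, 6, 12 and 24 h, with a change of sign at 1, 6 and 12 h (at 6 h from -0.05 to 0.04), and on the array labelled 3 h from -0.15 to -0.03. At 6 h the split over all probe sets became 8.05% higher and 6.70% lower. No paired analysis was possible because each group is 1 array. Signal near the floor limits Ccnd2, Ccne2, Cdkn1b, E2f1 and Cdkn1a 98067_at.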
